A study of Mus musculus with 6 samples.

Results

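The 31 genes described here encode the ionotropic glutamate receptors, their auxiliary subunits and the scaffold proteins that hold them at excitatory synapses. They were chosen by gene symbol, under a rule that uses no measured value but was written with earlier results of these data known, and all 31 were found among the 45777 genes of the deposited count table. The set holds 4 AMPA receptor genes (Gria1 to Gria4), 7 NMDA receptor genes (Grin1, Grin2a to Grin2d, Grin3a and Grin3b), 5 kainate receptor genes (Grik1 to Grik5), 1 delta receptor gene (Grid1), 5 auxiliary subunit genes (Cnih2, Cnih3, Cacng2, Cacng3 and Cacng8) and 9 scaffold genes (Dlg1 to Dlg4, Shank1 to Shank3, Homer2 and Homer3). RNA was sequenced from anterior cingulate cortex, a midline frontal area, of BALB/c mice, an inbred strain. 3 libraries came from mice put through social defeat, a procedure of repeated attack by a dominant mouse, over 5 days, and 3 from mice that received no stress. No genetic change or drug is named for either group, the labels used here carry no age or sex, and nothing in the labels ties a library to an animal of its own. The p-values therefore measure only the spread between these libraries, which may be technical.

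Glutamate opens AMPA receptors within milliseconds and these carry most fast excitatory current in cortex. NMDA receptors carry much current only when the cell is also depolarised, pass calcium and start the signalling that changes synaptic strength. Kainate receptors modulate release and excitability, delta receptors act mainly as adhesion partners of cerebellins, and auxiliary subunits of the cornichon (Cnih) and TARP (Cacng) families set the trafficking and gating of AMPA receptors. Dlg proteins, of which Dlg4 encodes PSD-95, bind receptor tails through PDZ domains, and Shank and Homer proteins link that layer to the actin skeleton and to metabotropic receptors.

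Library totals ranged from 41623899 to 47212982 counts. Non-stress 2 and non-stress 3 stood apart on principal component 1 (34.5% of the variance of log2 CPM, the count divided by the library total and scaled to 1e6), at 37.4 and 27.4, while non-stress 1 lay at -11.7 beside the stress libraries at -14.9 to -20.4. The labels name no batch. The excitatory neuron markers Slc17a7, Neurod6, Camk2a, Tbr1 and Nrgn were present in every library and summed to 3400 to 3680 CPM in non-stress, against 3340 to 3540 CPM in stress, with 4 of the 5 below 0 and 1 higher in stress without overlap. Markers of 6 other brain cell classes overlapped between the groups in summed level, among them the 6 GABA neuron markers (864 to 935 CPM against 930 to 935 CPM) and the 6 oligodendrocyte markers (6040 to 7500 CPM against 6640 to 7180 CPM). Single markers did separate, where 8.43% of all genes tested were higher and 9.43% lower in stress with no overlap between the groups. In this way 3 of 5 oligodendrocyte precursor markers were higher and 2 of 6 microglia markers lower. Of the GABA neuron markers 1 was higher and 1 lower, and so it was for the astrocyte markers. Among endothelial and mural markers 1 was lower, as was 1 striatal marker. Summed levels of 6 striatal markers (234 to 263 against 240 to 247 CPM) and 5 cerebellar markers (96.3 to 205 against 163 to 176 CPM) overlapped too, with the granule cell gene Gabra6 at 0 in every library. The 4 pituitary hormone genes did not overlap in sum, at 1.14 to 2.81 CPM against 3.45 to 13.8 CPM, and 3 of them were at 0 in at least 1 library. The part of other tissue in the values below was not tested. In bulk tissue, fewer cells of a type and less RNA per cell cannot be told apart.

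Divided by transcript length, the levels of these genes ran from that of Cnih2 down to that of Grin3b, which was close to the detection limit. The transcript of Cnih2 is 1.34 kilobases long. Before that division Gria2 was above Cnih2, at 616 and 817 against 411 and 407 CPM in non-stress and stress. Whether counts rise in proportion to transcript length in these libraries was not tested. Per kilobase of the longest annotated transcript, and over all 6 libraries, the cornichon gene Cnih2 was highest at 305 ± 13.0 CPM per kilobase (SD, n = 6). The main AMPA subunit genes followed with the TARP gene Cacng3 and with Cnih3: Gria2 stood at 69.1 ± 14.5, Cacng3 at 63.7 ± 4.24, Cnih3 at 49.4 ± 1.77, Gria1 at 39.2 ± 2.37 and Gria3 at 37.0 ± 3.23 CPM per kilobase. The obligatory NMDA subunit gene Grin1, at 38.7 ± 4.63 CPM per kilobase, lay between Gria1 and Gria3, and the ranges of these 3 genes overlapped. Gria2 and Cacng3 overlapped as well, because Gria2 lay below Cacng3 in non-stress 2 and non-stress 3. Dlg1 (20.0 ± 0.816), Grik5 (18.3 ± 1.74), Dlg3 (16.8 ± 0.770), Gria4 (14.9 ± 2.00) and Shank1 (12.6 ± 0.919) formed the next tier, each overlapping its neighbour in that order.

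Among NMDA subunits that pair with GluN1, the product of Grin1, Grin2a stood at 6.83 ± 0.462 and Grin2b at 3.69 ± 0.264 CPM per kilobase. These genes have longest transcripts of 14.6 and 24.1 kilobases. For every member the longest transcript was taken whatever its type, coding or not, and levels with another transcript length were not computed. The Dlg4 level was 3.09 ± 0.278 CPM per kilobase, below Dlg1, Dlg2 and Dlg3, and its range overlapped those of the kainate subunit genes Grik3 (3.08 ± 0.186) and Grik4 (3.01 ± 0.243). Shank3, at 1.70 ± 0.208, and Grid1, at 1.26 ± 0.165, were low. Cacng8, which encodes the TARP gamma-8, had 26 to 47 counts per library and stood at 0.459 ± 0.0808 CPM per kilobase. Grin3b had 4 to 13 counts per library (0.0567 ± 0.0228 CPM per kilobase), did not pass the filter on low counts and was not tested. The counting step is not given in the sources used here, so a low level of Dlg4 or Cacng8 may hold only for this table, and 32.1% of the exonic bases of Grin3b lie under exons of Tmem259 on the other strand.

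**Figure D1:**
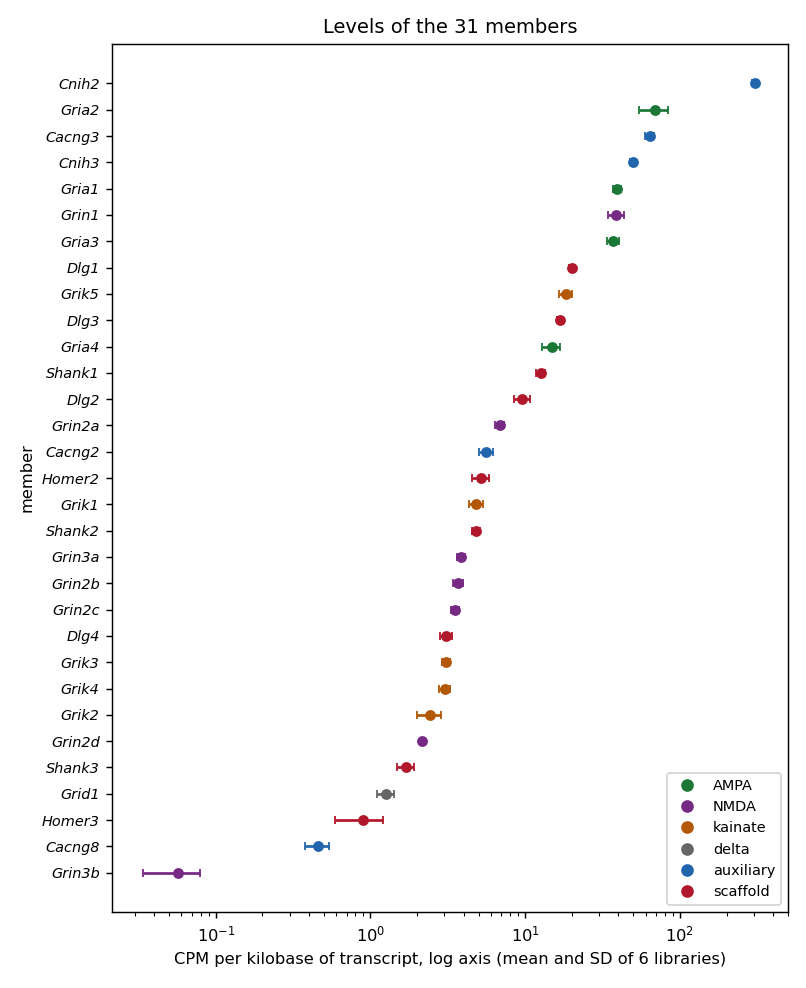
Level of each of the 31 genes in CPM per kilobase of its longest transcript, on a log axis; points are means and bars are SDs of all 6 libraries, coloured by class. Cnih2 lies at 305, Gria2 at 69.1 and Dlg4 at 3.09, and Grin3b is lowest at 0.0567.

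The stress libraries were then compared with the non-stress libraries. None of the 30 members tested passed edgeR's quasi-likelihood test at an adjusted p under 0.05 (0 of 30), where 0.00520% of the 19227 genes tested did. The AMPA genes Gria2, Gria3 and Gria4 and the kainate genes Grik1 and Grik2 had the smallest p-values of the members above 0. Grik5, Homer3, Grin1 and Dlg4 had the smallest p-values below 0. At an unadjusted p under 0.05 there were 9 members of 30, 5 higher and 4 lower in stress, against a background of 12.1% of all genes tested (5.80% higher and 6.27% lower). The groups did not overlap in 4 members, or 13.3%, against 17.9% of all genes: Gria2 was higher (8.43% of all genes were) and Grik5, Homer3 and Dlg4 were lower (9.43%). In all, 19 members lay above 0 and 11 below, where 49.8% of all genes lay above and 50.2% below. The median log2 fold change was 0.019 over the members and -0.001 over all genes tested. DESeq2, limma-voom and other size factors also called 0 members, with no adjusted p for Homer3 or Cacng8 from DESeq2.

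**Figure D2:**
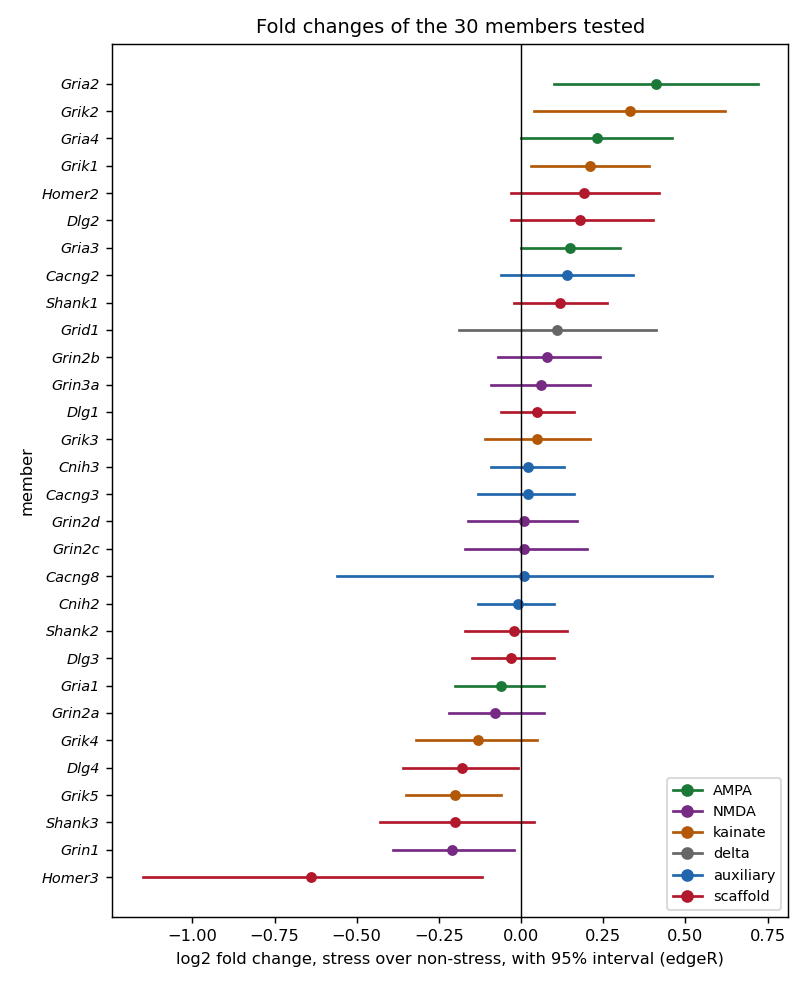
Log2 fold change of each of the 30 members tested, stress over non-stress, with the 95% interval of the edgeR fit, coloured by class. Gria2 is highest at 0.41 and Homer3 lowest at -0.64, and 27 of the 30 intervals lie within a 1.5-fold change in either direction.

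Each interval covers a single gene, is not adjusted over the members and rests on the spread between these libraries. In 27 of the 30 members the 95% interval of the fold change lay within 1.5-fold in either direction, the exceptions being Gria2, Grik2 and Homer3.

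Of the 4 AMPA receptor genes, 3 lay above 0 and none passed. Gria2 encodes GluA2, the subunit whose edited form keeps calcium out of the channel. It stood at 802, 518 and 527 CPM in non-stress 1, 2 and 3 and at 822, 813 and 816 CPM in stress 1, 2 and 3. The stress libraries were nearly equal, non-stress 1 was 1 of the 4 high libraries, and non-stress 2 and 3 were low. Group means were 616 ± 161 and 817 ± 5.00 CPM (SD, n = 3 each), with a log2 fold change of 0.41 (SE 0.14, edgeR adjusted p = 0.351).

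Gria4, an AMPA subunit gene known from fast-spiking interneurons, repeated that order. It stood at 89.6, 65.5 and 68.3 CPM in the non-stress libraries and at 87.3, 87.5 and 87.0 CPM in the stress libraries (log2 change 0.23, with SE 0.10 and adjusted p = 0.411). Here non-stress 1 was the highest of the 6, so the groups overlapped. Gria3, an X-linked subunit gene, stood at 204, 168 and 175 CPM in non-stress, against 201, 198 and 209 CPM in stress (log2 change 0.15, with SE 0.07 and adjusted p = 0.411). Non-stress 2 and 3 were again the lowest libraries, and the groups overlapped through non-stress 1. Gria1 encodes GluA1, the subunit most tied to activity-dependent insertion, and did not share this order. It stood at 202, 236 and 227 CPM in non-stress, against 208, 208 and 222 CPM in stress, so that non-stress 2 and 3 were its highest libraries (log2 change -0.06, with SE 0.06 and adjusted p = 0.704).

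**Figure D3:**
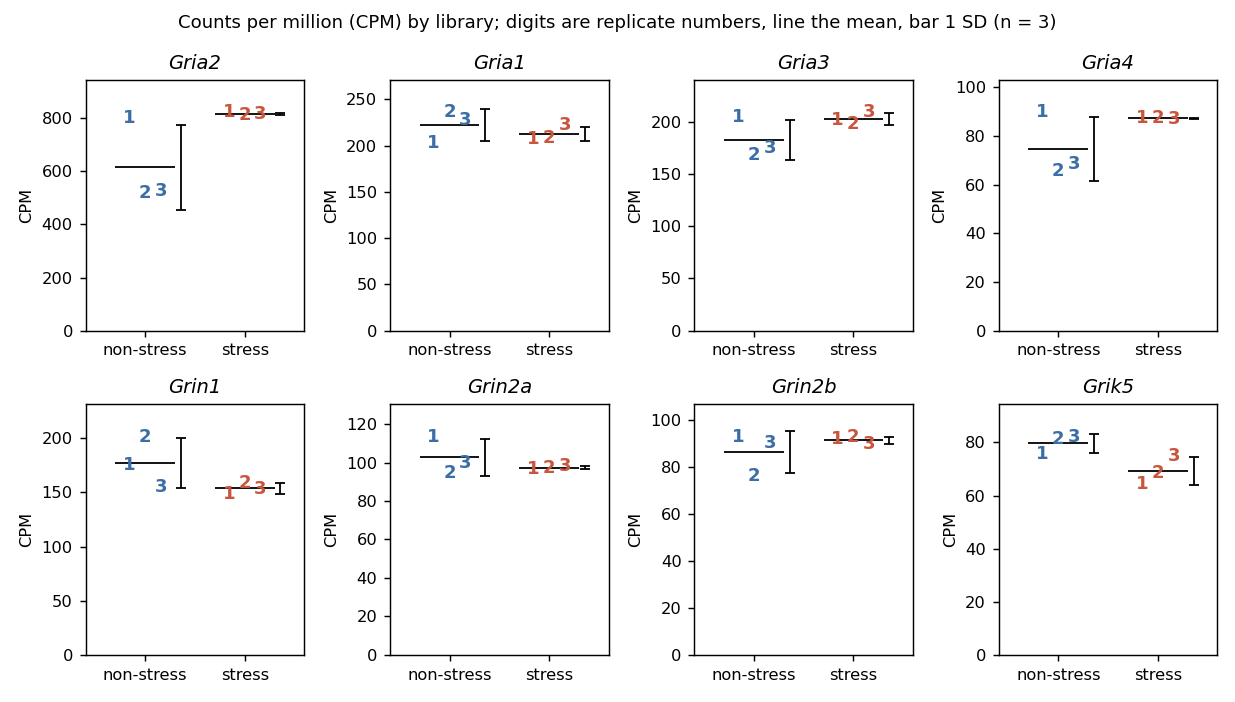
CPM in each library for the 4 AMPA genes, 3 NMDA genes and Grik5, on axes that start at 0; digits are replicate numbers, lines are means and bars are SDs (n = 3). In Gria2, non-stress 2 and 3 lie at 518 and 527 and the other 4 libraries between 802 and 822.

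Without non-stress 1, edgeR called Gria2 (log2 fold change 0.64, adjusted p = 8.3e-06), Gria4 (0.38, 0.00123) and Gria3 (0.24, 0.0124), among 756 genes called of 19616 tested. Without non-stress 2 and 3, an alternative chosen after seeing the data that leaves 1 non-stress library assumed to vary like the stress libraries, the log2 fold changes were 0.04 for Gria2, -0.03 for Gria4 and 0.00 for Gria3, with adjusted p of 0.753, 0.865 and 0.992. The AMPA genes summed to 1300, 988 and 997 CPM in non-stress, against 1320, 1310 and 1330 CPM in stress (exact permutation test over libraries, two-sided p = 0.1, the smallest that 3 against 3 allows, adjusted over 6 sums to 0.45). Gria2, with group means of 616 and 817 CPM in non-stress and stress, dominates that sum, which therefore largely repeats its values. Gria2 took 45.6%, 36.5% and 36.8% of the AMPA counts per kilobase in non-stress 1, 2 and 3, and 45.0% to 46.2% in the stress libraries. Gria1 took 21.6%, 31.1% and 29.7%, against 21.8% to 22.9%, and shares within a family are not independent. The log2 ratio of Gria1 to Gria2 counts averaged -1.44 ± 0.470 in non-stress and -1.94 ± 0.0566 in stress (exact permutation p = 0.3, adjusted over 12 ratios to 0.4). In non-stress 1 it was -1.99, within the stress values of -1.88 to -1.99. A ratio within a library shows unequal change between its 2 genes and not which of them changed.

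To show the start sites of these genes beside their transcripts, the 250 bases before a RefSeq start (GRCm38.p6) are printed for Gria2 and Gria4, which with Gria3 were low in the same 2 libraries, and for Grin1, whose difference had the opposite sign. CpG dinucleotides are in capitals, each sequence reads 5′ to 3′ on the gene's strand, and none of its bases lies under a GENCODE exon.
Gria2 (chr3:80802836-80803085, minus strand): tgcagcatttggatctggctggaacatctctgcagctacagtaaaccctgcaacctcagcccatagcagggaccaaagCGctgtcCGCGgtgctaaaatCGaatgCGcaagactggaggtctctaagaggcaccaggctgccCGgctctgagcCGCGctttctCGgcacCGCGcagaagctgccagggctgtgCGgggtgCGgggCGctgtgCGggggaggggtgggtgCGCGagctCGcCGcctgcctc
Gria4 (chr9:4796235-4796484, minus strand): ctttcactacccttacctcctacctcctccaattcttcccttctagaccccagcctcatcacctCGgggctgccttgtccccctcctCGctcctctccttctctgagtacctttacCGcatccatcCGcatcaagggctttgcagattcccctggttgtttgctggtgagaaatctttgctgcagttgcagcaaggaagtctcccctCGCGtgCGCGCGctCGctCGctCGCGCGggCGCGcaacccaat
Grin1 (chr2:25319188-25319437, minus strand): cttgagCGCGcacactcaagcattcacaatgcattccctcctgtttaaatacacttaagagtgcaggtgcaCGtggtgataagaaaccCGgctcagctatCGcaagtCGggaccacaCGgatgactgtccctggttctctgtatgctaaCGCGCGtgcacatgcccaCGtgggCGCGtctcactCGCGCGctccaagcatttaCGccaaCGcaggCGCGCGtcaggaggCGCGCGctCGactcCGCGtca
In the same annotation Gria2 spans chr3:80681450-80804227, Gria4 chr9:4417893-4796234 and Grin1 chr2:25291177-25319187. The Gria2 window lies before an internal start, inside that span. It is 64.8% G and C and holds 19 CpG dinucleotides, although its transcript is 36.8% G and C, the lowest of the 30 members tested. The Gria4 and Grin1 windows are both 58.8% G and C, with 16 and 27 CpG dinucleotides, while their transcripts are 44.3% and 59.4%. Windows were found for 22 of the 31 members, 31 windows in all, with a median of 11 CpG dinucleotides against 6 over all 32851 RefSeq windows. Unlike the printed windows, those of Cacng2, Cacng3 and Grin2d and a window of Dlg4 lie wholly under GENCODE exons. Others lie partly under exons, among them that of Homer3, so not every window is sequence outside transcripts.

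Motifs were looked for on both strands of these windows as a description. The cyclic AMP response element TGACGTCA was found in 0 of the 31 windows of the 22 members, where 1.55% of all windows hold it. The GC box GGGCGG was found in 12 of the 22 genes (41.9% of the 31 windows, 32.7% of all windows). These were Cnih2, Cnih3, Dlg1, Dlg3, Dlg4, Grik3, Grik4, Grik5, Grin2c, Homer2, Homer3 and Shank3, with log2 fold changes on both sides of 0. Whether a motif goes with direction was not tested. The E-box CACGTG was found in Grin1, Cnih3 and Dlg1 (12.9% of the 31 windows, 6.02% of all). TGANTCA, an AP-1 site, was found in Grin3b (3.23%, 6.75% of all), and TATAAA in 4 genes (12.9%, 12.4% of all).

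Grin1, the subunit every NMDA receptor contains, stood at 176, 201 and 155 CPM in non-stress, against 149, 159 and 153 CPM in stress. Non-stress 2 was far the highest and non-stress 3 lay inside the stress range, so the groups overlapped. The log2 fold change was -0.21 (SE 0.08, adjusted p = 0.388), and it was -0.10 without non-stress 2 and -0.18 without non-stress 2 and 3. An antisense gene, Grin1os, covers 13.5% of the exonic bases of Grin1 and stood at 3.41 ± 0.305 CPM in non-stress, against 2.69 ± 0.455 CPM in stress. Without strand, their reads cannot be told apart.

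Grin2a and Grin2b encode the GluN2A and GluN2B subunits that set the kinetics of cortical NMDA receptors, and their ratio moves towards GluN2A as the cortex matures. Grin2a stood at 113, 94.7 and 99.8 CPM in non-stress, against 96.8, 97.0 and 98.3 CPM in stress, where the stress libraries lay inside the non-stress range (log2 change -0.08, with SE 0.06 and adjusted p = 0.650). Its log2 change was 0.00 without non-stress 1 and -0.21 without non-stress 2 and 3 (unadjusted p = 0.000554, the smallest of the members in that fit, adjusted p = 0.0967). Grin2b stood at 92.8, 76.1 and 90.1 CPM in non-stress, against 91.7, 92.6 and 89.8 CPM in stress, with non-stress 2 alone low (log2 change 0.08, with SE 0.07 and adjusted p = 0.647). The log2 ratio of their counts was 0.289, 0.315 and 0.149 in non-stress and 0.0780, 0.0672 and 0.130 in stress. Every non-stress value lay above every stress value, with the exact permutation p at its smallest possible value of 0.1 (adjusted over 12 ratios, 0.171). The difference was -0.159, between -0.21 and -0.127 when any 1 library was left out. With GC and length trends removed the groups overlapped. The share of other gene pairs whose ratios separate the groups was not computed.

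The other NMDA genes differed less. Grin2c, best known from the cerebellum, stood at 17.2 ± 1.55 and 17.4 ± 0.805 CPM. Grin2d, an interneuron-enriched subunit gene, stood at 11.6 ± 0.251 and 11.7 ± 0.238 CPM. Grin3a, whose product lowers the calcium permeability of the receptor, stood at 28.2 ± 1.78 and 29.5 ± 1.37 CPM. Their log2 fold changes were 0.01, 0.01 and 0.06, with intervals from -0.17 to 0.20, -0.16 to 0.17 and -0.09 to 0.21. Grin3b stood at 0.189 ± 0.105 and 0.183 ± 0.0553 CPM.

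The kainate genes went in both directions, with 3 members above 0 and 2 below. Grik5 encodes GluK5, a high-affinity subunit that works with GluK1 to GluK3. It stood at 75.5, 81.5 and 82.1 CPM in non-stress, against 64.3, 68.5 and 74.9 CPM in stress. The groups did not overlap, although stress 3 came close to non-stress 1. The log2 fold change was -0.20 (SE 0.06, adjusted p = 0.351), the smallest unadjusted p of the members at 0.0105. It was -0.12 without non-stress 2 and 3 and -0.24 without non-stress 1 (adjusted p = 0.617 and 0.0690). Grik2, which encodes the main low-affinity subunit GluK2, stood at 25.3, 17.3 and 18.4 CPM in non-stress, against 25.3, 27.3 and 23.8 CPM in stress. Like the AMPA genes Gria2 to Gria4, it was low in non-stress 2 and 3 (log2 change 0.33, with SE 0.13 and adjusted p = 0.386). It was called without non-stress 1 (0.51, adjusted p = 0.00591) and stood at 0.02 without non-stress 2 and 3 (adjusted p = 0.972).

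Grik1, an interneuron-enriched subunit gene, stood at 16.1, 15.9 and 17.2 CPM in non-stress, against 17.1, 19.2 and 20.4 CPM in stress. Stress 1 lay just below non-stress 3, and the other 2 stress libraries were the highest (log2 change 0.21, with SE 0.08 and adjusted p = 0.386). The value was 0.19 without non-stress 1 and 0.24 without non-stress 2 and 3 (adjusted p = 0.269 and 0.468). Grik3 stood at 27.2 ± 2.36 and 28.1 ± 0.859 CPM (log2 fold change 0.05), and Grik4, the other high-affinity subunit gene, at 18.5 ± 1.14 and 16.9 ± 1.33 CPM (-0.13, adjusted p = 0.526). Grik1 took 13.5% to 14.2% of the kainate counts per kilobase in non-stress and 16.2% to 17.0% in stress. Grik5 took 58.2% to 62.2% and 54.2% to 56.3%. These shares were not tested and are not independent, since a lower Grik5 by itself raises the share of Grik1. The summed kainate level was 162 ± 3.04 and 159 ± 7.94 CPM (exact permutation p = 0.7, adjusted 0.84). Grid1, the delta receptor gene, stood at 6.84, 6.69 and 7.22 CPM in non-stress, against 9.06, 6.51 and 6.80 CPM in stress. Stress 1 alone was high (log2 change 0.11, with SE 0.13 and adjusted p = 0.772), and the value was -0.057 without it.

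The auxiliary subunit genes had a median absolute log2 fold change of 0.015, against 0.112 over the 30 members. Cnih2, which slows AMPA receptor closing, stood at 394, 440 and 398 CPM in non-stress, against 398, 406 and 417 CPM in stress (log2 change -0.01, interval -0.13 to 0.10). Cnih3 stood at 131 ± 6.26 and 133 ± 3.74 CPM (0.02, interval -0.09 to 0.13). Cacng3 stood at 176 ± 15.7 and 178 ± 9.90 CPM (0.02, interval -0.13 to 0.16). Cacng2, which encodes stargazin, stood at 29.3 ± 3.46 and 32.3 ± 2.35 CPM (0.14, interval -0.06 to 0.34), and Cacng8 at 0.867 ± 0.0726 and 0.873 ± 0.231 CPM (0.01, interval -0.56 to 0.58). At its depth of 26 to 47 counts the interval of Cacng8 reached nearly to 1.5-fold in either direction. Summed over the class, the levels were 748 ± 19.8 and 751 ± 24.9 CPM (exact permutation p = 0.9, adjusted 0.9).

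Of the 9 scaffold genes, 4 lay above 0 and 5 below, and the groups did not overlap in Homer3 and Dlg4. Homer3, a low gene in cortex that encodes an adaptor of metabotropic receptors, stood at 2.44, 3.88 and 2.26 CPM in non-stress, against 1.59, 2.05 and 1.89 CPM in stress, from 66 to 183 counts. Non-stress 2 was far above the others. The log2 fold change was -0.64 (SE 0.23, adjusted p = 0.363), -0.34 without non-stress 2 and -0.39 without non-stress 2 and 3. Exons of Ddx49 on the other strand cover 25.4% of the exonic bases of Homer3, and Ddx49 stood at 37.9 ± 0.738 and 35.7 ± 1.37 CPM. Homer3 counts are therefore uncertain.

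Dlg4, the PSD-95 gene, stood at 20.0, 22.6 and 19.8 CPM in non-stress, against 17.4, 19.0 and 18.5 CPM in stress. The groups did not overlap, with stress 2 and non-stress 3 next to each other (log2 change -0.18, with SE 0.08 and adjusted p = 0.394). The value was -0.12 without non-stress 2 and 3 and -0.22 without non-stress 1. Among the other Dlg genes, Dlg1 and Dlg2 lay above 0 and Dlg3 slightly below. Dlg2, which encodes PSD-93, stood at 81.7, 59.1 and 70.1 CPM in non-stress, against 81.9, 79.0 and 77.9 CPM in stress (log2 change 0.18, with SE 0.10 and adjusted p = 0.475), and was called without non-stress 1 (0.30, adjusted p = 0.0431). Dlg1, which encodes SAP97, stood at 121 ± 4.73 and 125 ± 5.18 CPM (0.05, interval -0.06 to 0.16), and Dlg3, which encodes SAP102, at 85.3 ± 5.77 and 83.7 ± 1.45 CPM (-0.03, interval -0.15 to 0.10). The log2 ratio of Dlg4 to Dlg1 averaged -2.54 ± 0.159 in non-stress and -2.78 ± 0.114 in stress, and that of Dlg4 to Dlg2 averaged -1.75 ± 0.328 and -2.12 ± 0.0981 (both exact permutation p = 0.1, adjusted 0.171). With 1 library left out the difference ran from -0.284 to -0.141 for Dlg4 to Dlg1 and from -0.517 to -0.196 for Dlg4 to Dlg2, nearest to 0 without non-stress 2 in both.

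Homer2 stood at 62.8, 46.3 and 49.2 CPM in non-stress, against 57.0, 60.7 and 63.1 CPM in stress. It was low in non-stress 2 and 3 (log2 change 0.19, with SE 0.10 and adjusted p = 0.470) and was called without non-stress 1 (0.34, adjusted p = 0.0121). Shank1 stood at 119 ± 10.1 and 129 ± 5.41 CPM (0.12, interval -0.02 to 0.26), Shank2 at 43.3 ± 4.04 and 42.8 ± 0.210 CPM (-0.02, interval -0.17 to 0.14), and Shank3 at 13.4 ± 1.67 and 11.7 ± 0.893 CPM (-0.20, interval -0.43 to 0.04). The Shank3 value was -0.10 without non-stress 1, -0.37 without non-stress 2 and 3 (unadjusted p = 0.00763, adjusted p = 0.251) and -0.07 with GC and length trends removed. The log2 ratio of Shank3 to Shank1 was -2.94, -3.23 and -3.29 in non-stress and -3.56, -3.44 and -3.40 in stress. These values did not overlap (exact permutation p = 0.1, adjusted 0.171). Of the 12 ratios computed, 7 reached that smallest possible p, and ratios that share a gene are not independent. How often other pairs of genes in this table reach it was not computed, so these 7 have no background share.

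**Figure D4:**
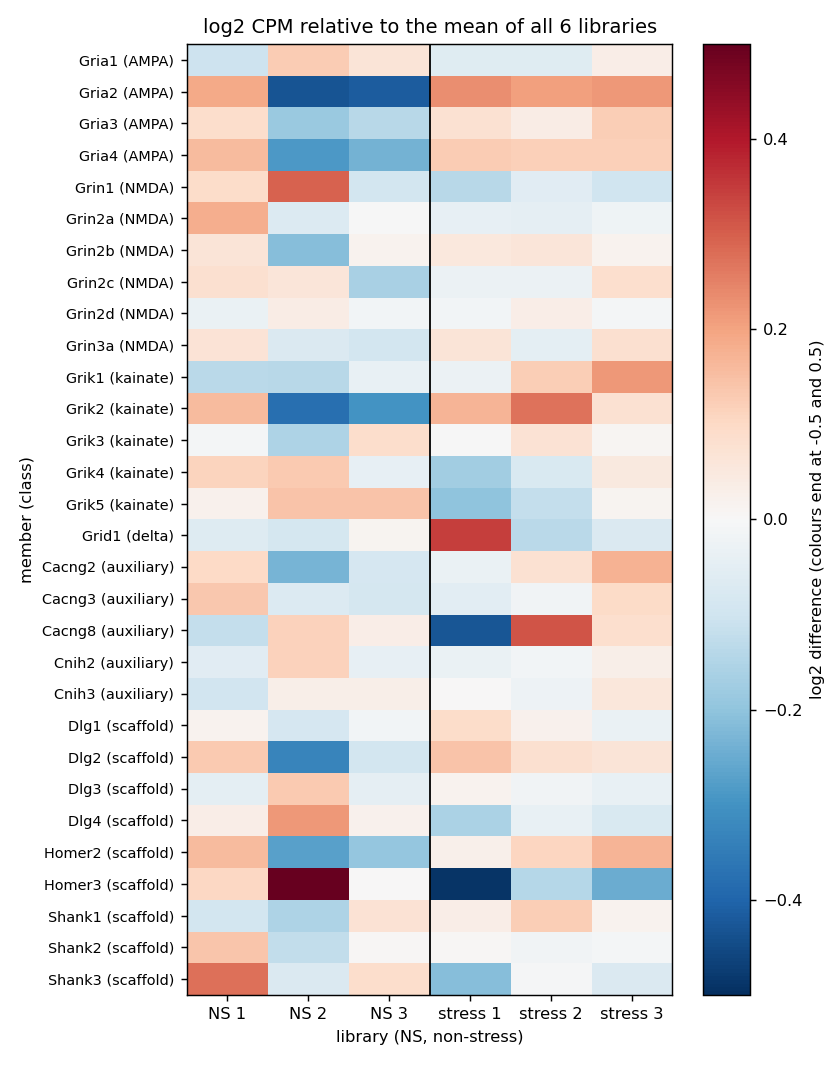
Log2 CPM of each of the 30 members tested relative to its mean over all 6 libraries, by library and class; red is above the mean and blue below. Gria2, Gria4, Grik2, Dlg2 and Homer2 are blue in non-stress 2 and 3 and red in non-stress 1 and the stress libraries, and Gria1 and Grik5 show the opposite colours in non-stress 2 and 3.

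The non-stress libraries differed among themselves in part of the set. In 9 of the 30 members (30%) non-stress 2 and 3 both lay below the other 4 libraries, against 14.9% of all genes tested. These were Gria2, Gria3, Gria4, Grin3a, Grik2, Cacng2, Cacng3, Dlg2 and Homer2. In 2 members (6.67%), Gria1 and Grik5, both lay above the other 4, against 13.2% of all genes. Set against each gene's own average, the median of the AMPA genes was 0.122, -0.236 and -0.187 on the log2 scale in non-stress 1, 2 and 3 and 0.08 to 0.12 in the stress libraries. That of the auxiliary genes was -0.056, 0.029 and -0.041 in non-stress, without this order. Over the 30 members it was 0.074, -0.073 and -0.026 in non-stress and -0.007, -0.009 and 0.031 in stress. In 20 of the 30 members (66.7%), against 57.4% of all genes, non-stress 1 was nearer to the stress mean than to the mean of non-stress 2 and 3. Without non-stress 1, 6 of the 30 members were called, where 756 of all 19616 genes tested were. Log2 fold changes without non-stress 2 and 3 not given elsewhere were 0.04 for Grin2d, 0.04 for Grik3, -0.17 for Grik4, 0.13 for Grid1, 0.11 for Cnih3, 0.16 for Cacng8, 0.01 for Dlg1, 0.16 for Shank1 and -0.14 for Shank2.

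The members' differences moved with the base composition of their transcripts. Across the 30 members, the log2 fold change had a Pearson correlation of -0.58 and a Spearman correlation of -0.61 with the GC content of the longest transcript, given as a description of genes measured in the same 6 libraries. Over 17313 genes with a value these were -0.22 and -0.31. Of the 14 members with GC content at or under 50%, 11 lay above 0, with a median log2 fold change of 0.13. Of the 16 members above it, 8 lay above 0, with a median of 0.00. Over all genes with a value, 5376 of 8977 at or under 50% lay above 0, and 3014 of 8336 above 50%. The members' difference between non-stress 1 and the mean of non-stress 2 and 3 had a correlation of -0.62 with GC content. That between stress and non-stress 1 had one of -0.18. Over all genes with a value these were -0.21 and -0.03.

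**Figure D5:**
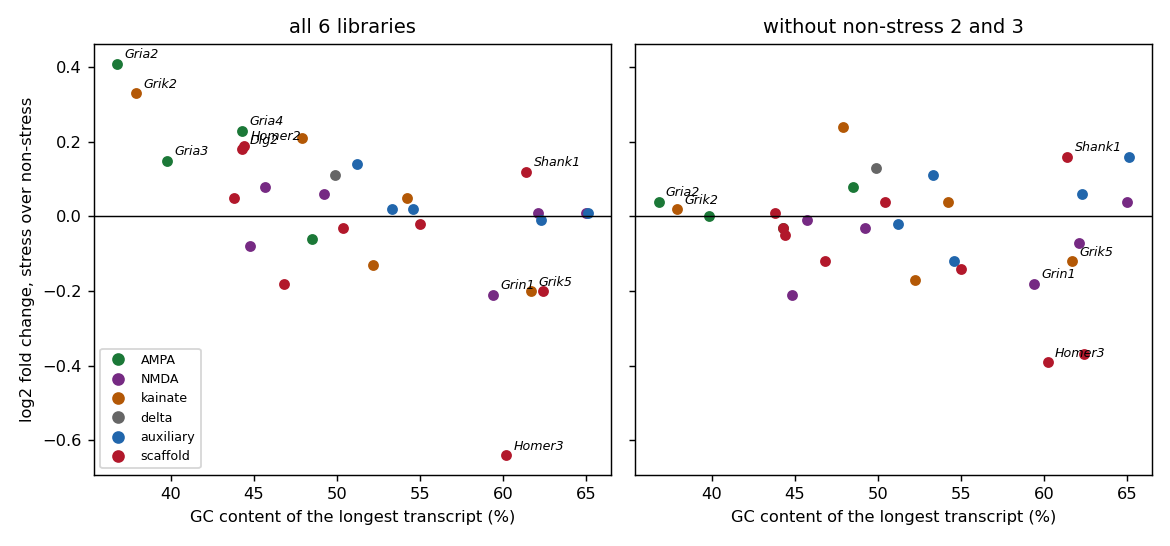
Log2 fold change of each of the 30 members, stress over non-stress, against the GC content of its longest transcript, with all 6 libraries (left) and without non-stress 2 and 3 (right), coloured by class. On the left Gria2 and Grik2, at 36.8% and 37.9% GC, are highest at 0.41 and 0.33, and on the right they lie at 0.04 and 0.02.

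Once smooth trends on GC content and transcript length were taken out of each library, the log2 fold change was 0.19 for Gria2, 0.15 for Grik2 and 0.05 for Gria3 (adjusted p = 0.274, 0.449 and 0.595). That of Gria4 was 0.23, as before. Values nearer to 0 were also given for Grik5 (-0.06) and Grin1 (-0.08), while Grik1 (0.24) and Dlg4 (-0.17) were close to those without the correction. Others lay farther from 0, among them Shank1 (0.23, unadjusted p = 0.00795, adjusted p = 0.265), Grin2d (0.17), Grin2c (0.16), Cacng2 (0.20) and Grin2a (-0.12). The median over the 30 members became 0.097, with 21 above 0, and that over all genes tested was 0.007. How far sequence composition accounts for the difference between the non-stress libraries was not tested.

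Other genes of the glutamate synapse were taken from a list of 60, all of which were tested. None passed (0 of 60), 15 had an unadjusted p under 0.05 (9 higher, 6 lower) against 12.1% of all genes, 17 did not overlap between groups (28.3%, against 17.9%), and the median log2 fold change was -0.009. Among those with the smallest p-values above 0 were the synaptic adhesion genes Lrrtm3 (87.0 ± 5.69 and 98.6 ± 2.88 CPM, log2 fold change 0.18), Lrrtm4 (19.7 ± 3.48 and 25.1 ± 0.994 CPM, 0.35) and Lrrtm2 (49.3 ± 7.15 and 60.2 ± 2.75 CPM, 0.29). Their adjusted p-values were 0.345 for Lrrtm3 and 0.351 for Lrrtm4 and Lrrtm2. In these 3 genes the groups did not overlap, and all 3 were called without non-stress 1 (adjusted p = 0.0427, 0.00407 and 0.0176 for Lrrtm3, Lrrtm4 and Lrrtm2). Without non-stress 2 and 3 their log2 fold changes were 0.10, 0.09 and 0.10, and with GC and length trends removed they were 0.19, 0.20 and 0.14.

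The 4 with the smallest p-values below 0 were Dlgap3, which encodes a linker between Dlg and Shank proteins (62.2 ± 8.57 and 51.1 ± 3.14 CPM, log2 fold change -0.29, adjusted p = 0.351), Prrt2 (426 ± 16.5 and 395 ± 1.72 CPM, -0.11, adjusted p = 0.374), Iqsec1 (65.0 ± 3.82 and 58.3 ± 2.05 CPM, -0.15, adjusted p = 0.374) and Grip2, which encodes a PDZ protein that binds AMPA receptors (8.86 ± 1.37 and 7.23 ± 0.255 CPM, -0.30, adjusted p = 0.388). With GC and length trends removed the log2 fold changes were -0.12 for Dlgap3, -0.01 for Prrt2, -0.10 for Iqsec1 and -0.17 for Grip2, and that of Grip2 was -0.153 without non-stress 2. Without non-stress 2 and 3 they were -0.33, -0.06, -0.05 and -0.14. Homer1, at 18.8 ± 1.00 CPM per kilobase above Homer2 and Homer3, stood at 108 ± 7.46 and 107 ± 5.06 CPM (log2 fold change -0.01, interval -0.14 to 0.12). With GC and length trends removed its log2 fold change was -0.23 (adjusted p = 0.234). Its short activity-induced form and its long forms are not separated in a count per gene.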

How the data were processed

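The authors deposited whole-number counts per gene for 6 libraries, 3 stress and 3 non-stress. Per the labels' protocols, cDNA came from the SMARTer Ultra Low kit and libraries from TruSeq reagents. Trimmomatic 0.38, HISAT2, StringTie and genome build GRCm38 (mm10) are named in the submitters' processing notes; for the counting step, its use of strand and the annotation release, nothing is stated in the sources used here. Counts were used unchanged. CPM are counts over the library total. edgeR 4.0.16 (R 4.3.3) kept 19227 genes by filterByExpr, scaled libraries by TMM and ran the quasi-likelihood test with group alone, two-sided, Benjamini-Hochberg adjusted over all genes, with a threshold of 0.05. Alternatives were other size factors, filters (none, or 50 counts in 3 libraries), each library left out, a replicate block, DESeq2 1.42.0, limma-voom (limma 3.58.1) and removal of spline trends (5 degrees of freedom) on GC content and length, for 90% of genes tested. Lengths and GC content are those of the longest GENCODE M21 transcript of any type, matched by NCBI gene ID or symbol. Promoter windows come from RefSeq (GRCm38.p6), for 22 of the 31 members. Fits were tested on simulated data. Every member is named. Of the wider list the 4 genes of smallest p in each direction are named, with Homer1, except for 1 gene that, like 1 excitatory marker, is not reported here. Members and lists were chosen with earlier results of these data known. The removal of non-stress 2 and 3 was added after seeing the data.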

Additional observations from a re-analysis of the deposited data

How the results depend on the processing

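Of the 31 genes, 0 were called under every alternative run, except that 6 were called without non-stress 1 (range over libraries left out 0 to 6). Over all genes, 1 was called, with 1 to 756 when 1 library was left out, 127 with DESeq2, 2 with limma-voom, 3 with GC and length trends removed, and 63 without non-stress 2 and 3. The labels do not say that replicate numbers pair the libraries. Deviations from the group mean had correlations of 0.016, -0.0298 and 0.0209 between same-numbered libraries. Not every library correlated best with its own number. With 3 libraries a group, and deviations that sum to 0 within each group, these values cannot decide whether libraries were paired. A replicate block gave 2 calls, or 5 with trends removed, and no member. In the wider list 0 to 11 genes were called with 1 library left out, and 1 (Nptxr) without non-stress 2 and 3.

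Direction held under every setting in 11 members and turned in 19, at sizes up to 0.17 on the log2 scale. Without non-stress 2 and 3 the log2 fold changes that turned were 0.0784 (Gria1), -0.002 (Gria3), -0.0307 (Gria4), -0.0145 (Grin2b), -0.0656 (Grin2c), -0.031 (Grin3a), 0.0554 (Cnih2), -0.0174 (Cacng2), -0.1183 (Cacng3), -0.0285 (Dlg2), 0.0393 (Dlg3) and -0.0511 (Homer2). With trends removed, and then with the replicate block as well, they were -0.0028 and -0.0029 (Grin2b), 0.0491 and 0.0492 (Cnih2), 0.0258 and 0.0271 (Dlg3), and 0.0594 and 0.0631 (Shank2). Cacng8 gave -0.0074 with the block and -0.0173 with limma-voom. With 1 library left out the ranges that crossed 0 were -0.124 to 0.0004 (Grin2a), -0.061 to 0.056 (Grin2c), -0.0083 to 0.03 (Grin2d), -0.0086 to 0.108 (Grik3), -0.057 to 0.199 (Grid1), -0.044 to 0.046 (Cnih2), -0.019 to 0.045 (Cnih3), -0.03 to 0.089 (Cacng3), -0.168 to 0.198 (Cacng8), -0.058 to 0.036 (Dlg3), -0.075 to 0.053 (Shank2) and -0.055 to 0.038 (Homer1).

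Class medians without non-stress 2 and 3 were 0.0168 (AMPA) and -0.0483 (NMDA). With trends removed, and with the block as well, they were 0.1201 and 0.1222 (kainate), 0.1015 and 0.1082 (auxiliary), 0.0973 and 0.0978 (all members) and 0.0428 and 0.0436 (wider list). Ratio differences that turned were 0.0422 (Gria1 to Gria2), -0.0279 (Grin2a to Grin1) and 0.139 (Cacng8 to Cacng2) without non-stress 2 and 3, and 0.0559 (Gria4 to Gria2) and -0.0455 (Grin2a to Grin1) with trends removed. Grin2a to Grin1 ranged from -0.026 to 0.203 with 1 library left out. Class sums turned to -0.2587 CPM (scaffold) and -18.3946 CPM (all members) without non-stress 2 and 3, and to -0.9838 CPM per kilobase (auxiliary). With 1 library left out they ranged from -6.818 to 0.88 CPM (kainate) and -10.856 to 13.435 CPM (auxiliary). The cause of these changes was not tested. Depth limits Grin3b, Cacng8 and Homer3, the members with the fewest counts, and 3 libraries a group allow no exact p under 0.1.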
